A study of Mus musculus with 6 samples.

Results

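The genes described here encode ribosome assembly and rRNA processing factors, and were read on arrays of mouse NK (natural killer) cells, which are innate lymphocytes known for killing infected and tumour cells. They were chosen by name, with earlier results of these data known. The rule took symbols that begin with Nop, Utp, Rrp or Exosc and a number, symbols of the Nol and Noc families, and 16 further factors listed by name, such as Fbl, Ncl and Npm1. Of the 19935 genes tested, 61 met the rule on probe sets with exactly 1 gene symbol. A further 5 genes that the rule covers (Exosc6, Noc2l, Npm3, Rrp7a and Utp14b) had no probe set of their own and were not analysed as members.

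The study compared 3 arrays of IL-18 generated NK cells with 3 arrays of unstimulated NK cells, each from a separate preparation that the design text calls independent. Per the labels, cells isolated on NK1.1 were cultured overnight in medium that held 300 IU IL-2 together with 25 ng/ml IL-18. Live NK1.1 positive cells without CD3 were then sorted. The gate for the IL-18 generated cells was c-kit positive and CD11b negative, whereas that for the unstimulated cells was the opposite, c-kit negative and CD11b positive. The growth text is the same for both groups, so whether unstimulated cells were cultured or received IL-2 is not settled, and the labels used here give no strain, age or sex of the mice. Stimulus, culture and gate cannot be told apart in any difference below.

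Ribosomes are assembled mainly in the nucleolus, where a long precursor rRNA is transcribed, chemically modified, folded, cut and joined to ribosomal proteins. Small nucleolar RNA-protein particles (snoRNPs) guide the modifications, the box C/D class for ribose methylation and the box H/ACA class for pseudouridylation. Separate sets of factors then build the small and the large subunit, and the RNA exosome, a ring-shaped ribonuclease complex, trims and degrades precursor fragments. Lymphocytes that leave rest and begin to grow are known to raise the production of ribosomes.

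Of the 61 members, 58 rose in the IL-18 generated cells, 0 fell and 3 did not pass the test (limma, adjusted p below 0.05 over all genes). The background was high, since 36.4% of all genes tested passed by the same rule, with 19.7% of all genes higher and 16.7% lower. The members' median log2 change was 1.08, against -0.06 over all genes. A rise of at least 2-fold was seen for 35 members, where 3.62% of all genes met that rule. Among all genes ranked by change, 39 of the 61 members lay in the top 5%, which began at a log2 change of 0.84. The top 1%, from a log2 change of 1.63 upward, held 7 members, namely Nop58, Tsr1, Nop16, Gnl3, Utp20, Npm1 and Ltv1.

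**Figure D1:**
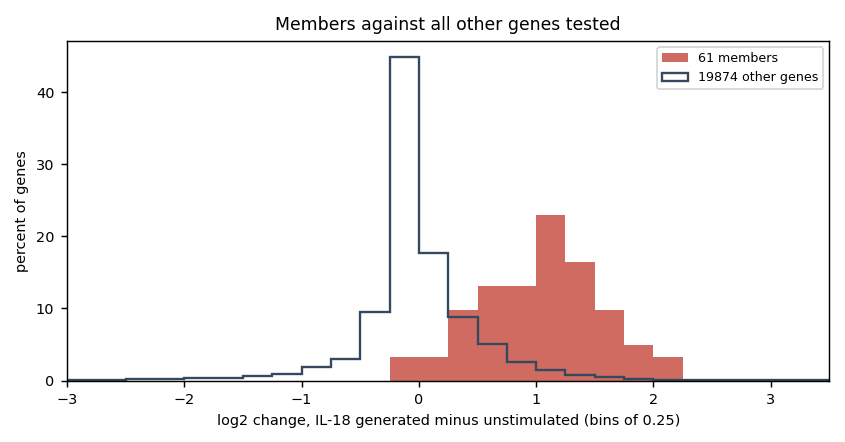
Percent of genes (vertical axis) in bins of log2 change, IL-18 generated minus unstimulated (horizontal axis), for the 61 members (filled) and the 19874 other genes tested (outline). The members centre near a change of 1.08 and the other genes near -0.07, and 88 other genes beyond the drawn range are not shown.

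All values are log2 values relative to the median of the probe set over the 6 arrays, so they show differences and no expression level. Where the groups of a probe set are apart, this median lies midway between the lowest value of the higher group and the highest value of the lower group, which places the groups on either side of 0 by construction. Every IL-18 value was above every unstimulated value for 58 members, and 22.9% of all genes showed that separation. Averaged over the 61 members, the IL-18 arrays stood at 0.46, 0.48 and 0.56 and the unstimulated arrays at -0.58, -0.45 and -0.59. Unstimulated replicate 2 lay nearest the IL-18 arrays for 38 of the 58 members that rose (65.5%), as it did for 59.5% of all genes that rose. IL-18 replicate 3 was the highest array for 41 of the 58 (70.7%), against 55.5% of all genes that rose. Without unstimulated replicate 2, 57 members rose.

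**Figure D2:**
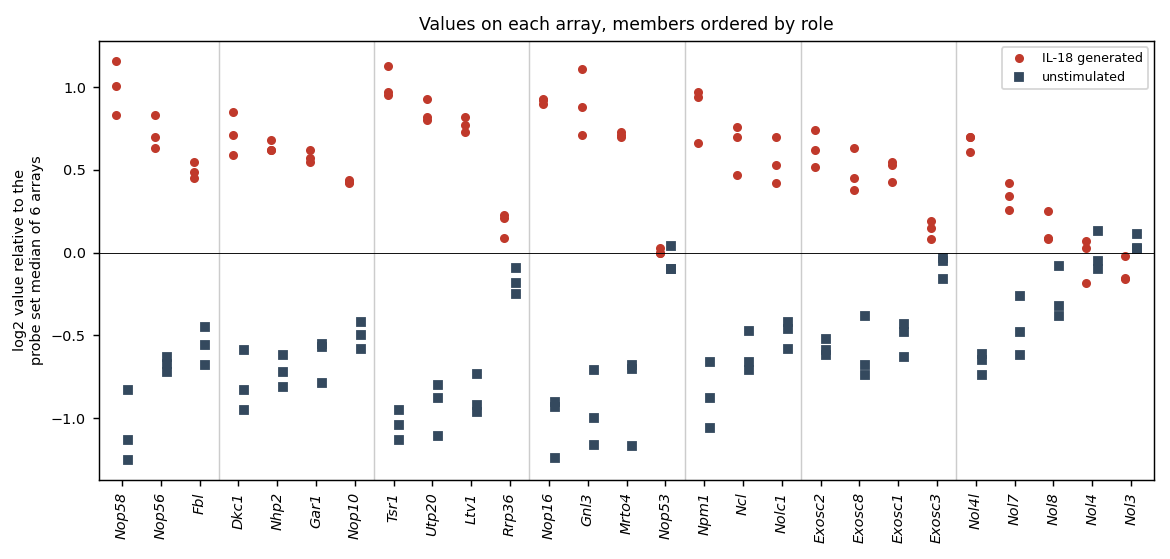
Log2 value relative to the probe set median (vertical axis) on each of the 3 IL-18 generated (circles) and 3 unstimulated (squares) arrays for 27 members, ordered by role along the horizontal axis. The groups are apart for all of them except Nop53 and Nol4, and Nol3 alone has its IL-18 values on the lower side.

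Of the core proteins of the box C/D snoRNP, the 3 that the name rule covers all rose, while Snu13, which it does not cover, did not pass and is given with the other pathway genes. Nop58, a scaffold protein of the particle, had the largest change of all members. It stood at 0.83, 1.01 and 1.16 on the IL-18 arrays, against -1.25, -0.83 and -1.13 on the unstimulated arrays. The log2 change was 2.07 ± 0.12 (SE, 3 arrays in each group, likewise below), a rise of 4.20-fold (limma adjusted p 5.35e-07). The groups did not overlap, and the spread within each was well below the gap between them. Nop56, the partner of Nop58 in the same scaffold, had 0.70, 0.63 and 0.83 on the IL-18 arrays and -0.72, -0.67 and -0.63 on the unstimulated arrays, a change of 1.39 ± 0.08. Fbl, which encodes the methyltransferase fibrillarin, had 0.49, 0.45 and 0.55 on the IL-18 arrays and -0.45, -0.56 and -0.68 on the unstimulated arrays. Its change of 1.06 ± 0.08 is a mean of 2 probe sets, which gave 1.15 ± 0.08 and 0.98 ± 0.09.

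All 4 core proteins of the box H/ACA snoRNP rose as well, with a median of 1.28. Dkc1 encodes dyskerin, the pseudouridine synthase, and also belongs to telomerase. It stood at 0.59, 0.71 and 0.85 on the IL-18 arrays, against -0.95, -0.59 and -0.83 on the unstimulated arrays, a log2 change of 1.51 ± 0.11 (limma adjusted p 2e-06). Nhp2, an RNA-binding partner, had 0.62, 0.68 and 0.62 on the IL-18 arrays and -0.62, -0.81 and -0.72 on the unstimulated arrays. Gar1, which aids substrate turnover, had 0.55, 0.57 and 0.62 on the IL-18 arrays and -0.55, -0.57 and -0.79 on the unstimulated arrays. The changes of both were close, 1.35 ± 0.08 for Nhp2 and 1.21 ± 0.08 for Gar1. Nop10, the smallest change of the particle, had 0.42, 0.44 and 0.43 on the IL-18 arrays and -0.50, -0.42 and -0.58 on the unstimulated arrays, a change of 0.93 ± 0.07. Its IL-18 values were tighter than those of Dkc1, and none of the 4 genes had overlapping groups.

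Small subunit factors were the most numerous members, and all 22 rose, 14 of them at least 2-fold, and their median was 1.14. They include the Utp proteins of the small subunit processome, the large particle that folds and cleaves the early precursor, and factors of later, partly cytoplasmic steps. Tsr1, a GTPase-like factor of late small subunit precursors, stood at 0.95, 0.97 and 1.13 on the IL-18 arrays, against -1.13, -0.95 and -1.04 on the unstimulated arrays. Its log2 change of 2.06 ± 0.08, or 4.16-fold, had the lowest adjusted p of all members (limma, 5.87e-08). Utp20, a long scaffold protein of the processome, had 0.80, 0.82 and 0.93 on the IL-18 arrays and -1.11, -0.80 and -0.88 on the unstimulated arrays, a change of 1.78 ± 0.09. Ltv1, known from yeast as a factor of late maturation and export of the small subunit, had 0.77, 0.73 and 0.82 on the IL-18 arrays and -0.96, -0.73 and -0.92 on the unstimulated arrays, a change of 1.64 ± 0.08.

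Further members of the processome followed at 1.52 ± 0.10 for Nol10, 1.48 ± 0.09 for Rrp9, 1.46 ± 0.12 for Utp18 and 1.39 ± 0.08 for Utp4. Rrp9 binds the snoRNA of the processome, and Utp18 and Utp4 are WD-repeat proteins of its early subcomplexes. Rrp12, a repeat protein known from yeast for export of precursors, changed by 1.40 ± 0.08. No groups overlapped in any of these 5 genes. The changes of Nol6, Utp11, Nop14, Nol11, Utp15 and Noc4l lay between 1.00 for Noc4l and 1.20 for Nol6. Most of these are processome proteins too. Below them were Bysl (bystin, a late factor) at 0.93 ± 0.08, Utp14a at 0.82 ± 0.10, Utp25 at 0.68 ± 0.08, Utp23 at 0.62 ± 0.09, Nop9 at 0.60 ± 0.08 and Utp6 at 0.58 ± 0.08. The lowest were Utp3 at 0.38 ± 0.09 and Rrp36, needed for early cleavages. Rrp36 had 0.21, 0.09 and 0.23 on the IL-18 arrays and -0.25, -0.18 and -0.09 on the unstimulated arrays, a change of 0.35 ± 0.08 (limma adjusted p 0.00504). Even there the groups did not overlap, although the gap was narrow. Nol11, at 1.13 on its own probe set, shares further probe sets with Rps12. Their changes of 0.76, 0.71, 0.73 and 0.72 cannot be assigned to either gene.

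Promoter windows were looked up because the members moved together, and were searched for CACGTG, the E-box motif that MYC and other factors of its class are known to bind. The letters read the same on both strands, so each match counts once. RefSeq's table (GRCm38.p6) held windows of 300 bases, from 250 before to 50 after a gene's start, for 48 of the 61 members. The motif lay in a window of 10 of these 48 genes (20.8%), against 9.5% of all 15612 measured genes with a window and 13.5% of the 3154 of them that rose. Over single windows the share was 20.7% of 58 member windows and 7.2% of all 32851 in the table. By role, 7 of 17 small subunit factors held it (Tsr1, Utp20, Ltv1, Utp18, Utp4, Nol11 and Utp25), 2 of 13 large subunit factors (Nop2 and Pes1) and 1 of 7 exosome genes (Exosc5). None of the 2 box C/D, 4 box H/ACA and 2 chaperone genes with a window held it. These shares are descriptions of letters in a window and say nothing of binding.

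The windows of the 4 members with the largest change that hold CACGTG, and of Nop58, which has the largest change and no match, are printed so that the placement can be seen. Capitals mark the motif, and the sequence runs along the gene's strand.
Tsr1 (chr11:74897830-74898129, plus strand): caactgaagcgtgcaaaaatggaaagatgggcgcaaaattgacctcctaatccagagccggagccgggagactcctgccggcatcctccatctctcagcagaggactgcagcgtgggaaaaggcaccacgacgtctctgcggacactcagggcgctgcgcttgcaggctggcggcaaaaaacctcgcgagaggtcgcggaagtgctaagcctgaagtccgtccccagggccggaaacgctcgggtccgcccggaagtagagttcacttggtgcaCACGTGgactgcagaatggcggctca
Utp20 (chr10:88826765-88827064, minus strand): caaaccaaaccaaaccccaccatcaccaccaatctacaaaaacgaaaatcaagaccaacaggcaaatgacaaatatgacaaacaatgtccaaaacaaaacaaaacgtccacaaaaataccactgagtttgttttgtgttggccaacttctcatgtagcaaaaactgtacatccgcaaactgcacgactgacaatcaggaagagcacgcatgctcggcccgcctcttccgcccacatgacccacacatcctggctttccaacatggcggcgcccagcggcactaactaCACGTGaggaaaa
Ltv1 (chr10:13193088-13193387, minus strand): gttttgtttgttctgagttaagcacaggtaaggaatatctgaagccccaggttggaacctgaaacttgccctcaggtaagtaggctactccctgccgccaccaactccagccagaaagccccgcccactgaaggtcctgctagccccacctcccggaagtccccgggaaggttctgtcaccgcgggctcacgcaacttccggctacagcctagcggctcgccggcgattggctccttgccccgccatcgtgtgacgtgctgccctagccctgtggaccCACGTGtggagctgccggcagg
Utp18 (chr11:93885717-93886016, minus strand): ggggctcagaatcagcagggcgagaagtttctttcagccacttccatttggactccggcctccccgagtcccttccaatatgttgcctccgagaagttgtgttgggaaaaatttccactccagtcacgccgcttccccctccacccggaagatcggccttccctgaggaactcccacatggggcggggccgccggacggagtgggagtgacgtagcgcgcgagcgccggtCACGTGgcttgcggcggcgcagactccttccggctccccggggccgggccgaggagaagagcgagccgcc
Nop58 (chr1:59684756-59685055, plus strand): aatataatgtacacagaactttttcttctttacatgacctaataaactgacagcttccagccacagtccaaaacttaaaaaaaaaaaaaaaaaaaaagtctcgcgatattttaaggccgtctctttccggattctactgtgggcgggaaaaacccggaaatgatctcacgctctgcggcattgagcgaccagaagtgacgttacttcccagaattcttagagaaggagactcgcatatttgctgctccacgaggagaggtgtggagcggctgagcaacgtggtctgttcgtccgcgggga
The motif began 24, 37 and 28 bases after the annotated start in Tsr1, Utp20 and Ltv1, and 20 bases before it in Utp18. The gene of MYC itself, Myc, stood at 0.78, 0.70 and 0.99 on the IL-18 arrays, against -0.70, -1.00 and -1.14 on the unstimulated arrays. It rose by 1.77 ± 0.12 (limma adjusted p 1.37e-06), and its part in the members' changes was not tested.

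Of 15 large subunit factors, 14 rose, 8 of them at least 2-fold, and 1 did not pass. Their changes ranged from 0.06 to 1.94, with a median of 1.11. Nop16, a nucleolar protein of early large subunit precursors, stood at 0.90, 0.92 and 0.93 on the IL-18 arrays, against -0.90, -0.93 and -1.24 on the unstimulated arrays. The log2 change was 1.94 ± 0.10 (limma adjusted p 2.19e-07). Gnl3, which encodes the GTPase nucleostemin, had 0.71, 0.88 and 1.11 on the IL-18 arrays and -1.16, -0.71 and -1.00 on the unstimulated arrays, a change of 1.86 ± 0.13. Mrto4, a placeholder for a protein of the ribosomal stalk, had 0.70, 0.71 and 0.73 on the IL-18 arrays and -0.68, -0.70 and -1.17 on the unstimulated arrays, a change of 1.56 ± 0.12. In Nop16 and Mrto4 the IL-18 arrays lay close together, and unstimulated replicate 3 was the lowest array.

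The PeBoW complex, which large subunit maturation needs, has 3 members here. Wdr12 changed by 1.50 ± 0.10, Pes1 by 0.96 ± 0.07 and Bop1 by 0.71 ± 0.08. Of the enzymes, Nop2, an rRNA methyltransferase, changed by 1.34 ± 0.07, while Rrp8, another methyltransferase, changed by 0.75 ± 0.08 and the polynucleotide kinase Nol9 by 0.45 ± 0.07. Noc3l and Rrp15, both known from yeast for large subunit precursors, changed by 1.23 ± 0.09 and 1.11 ± 0.10. The paralogs Rrp1b and Rrp1 differed in size, at 1.53 ± 0.08 for Rrp1b and 0.41 ± 0.08 for Rrp1, and Nol12 changed by 0.42 ± 0.08. The differences between members were not tested.

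Nop53, which in yeast guides the exosome to the large subunit precursor, was the factor with an assembly role that did not pass. It had 0.03, 0.00 and 0.00 on the IL-18 arrays and 0.04, -0.10 and -0.10 on the unstimulated arrays, so the groups overlapped. Its log2 change was 0.06 ± 0.07 (limma adjusted p 0.543, 95% interval -0.10 to 0.23). The interval leaves out a change as large as the members' median. With values relative to a probe set median, a gene near 0 may also be undetected in both groups.

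**Figure D3:**
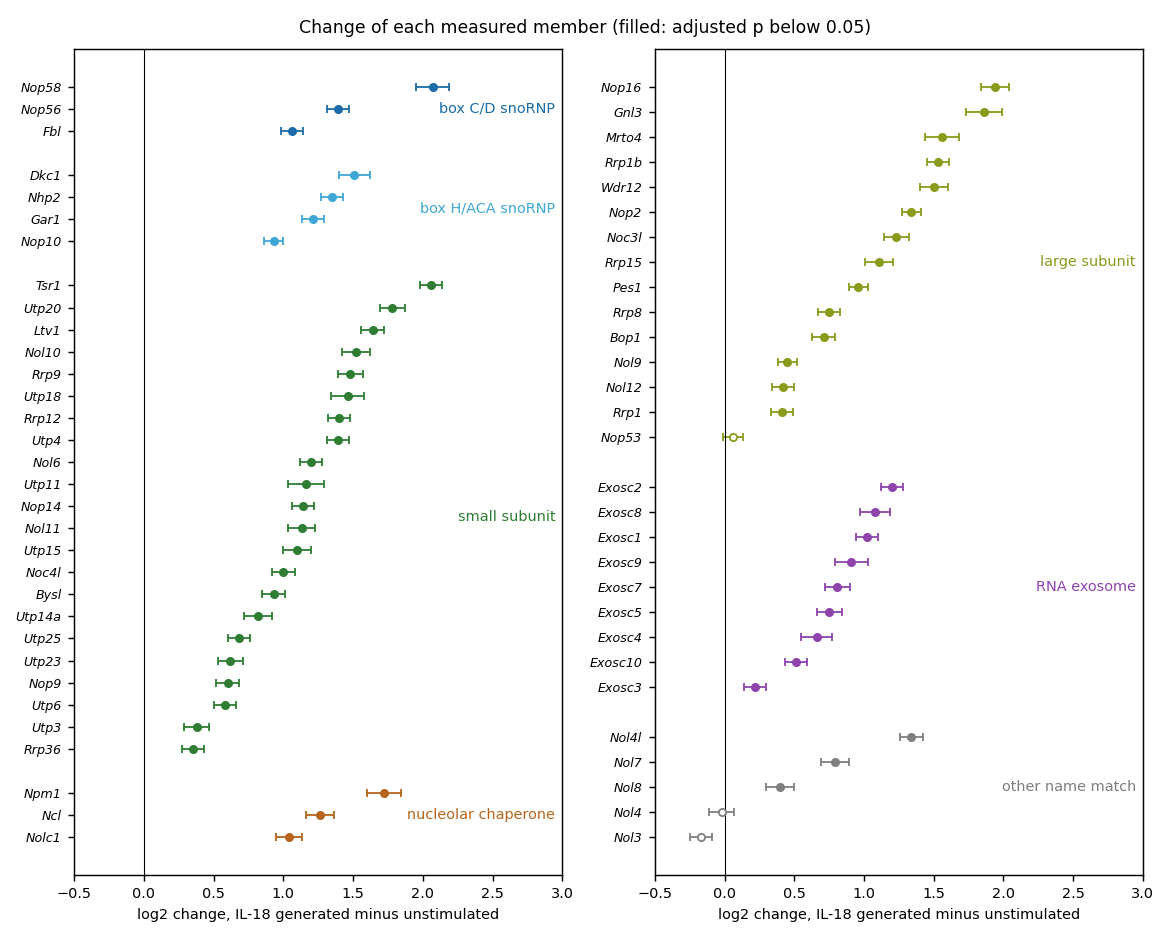
Log2 change, IL-18 generated minus unstimulated (horizontal axis, bars ± SE, n = 3 arrays per group), for each of the 61 members, grouped by role, with filled points at an adjusted p below 0.05. The changes run from 2.07 for Nop58 to -0.17 for Nol3, and the open points are Nop53, Nol4 and Nol3.

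The abundant nucleolar proteins that act as chaperones of RNA and protein all rose. Npm1, nucleophosmin, stood at 0.66, 0.94 and 0.97 on the IL-18 arrays, against -0.88, -0.66 and -1.06 on the unstimulated arrays, a log2 change of 1.72 ± 0.12 (limma adjusted p 1.43e-06). Ncl, nucleolin, had 0.47, 0.70 and 0.76 on the IL-18 arrays and -0.66, -0.47 and -0.71 on the unstimulated arrays, a change of 1.26 ± 0.10. Nolc1, a chaperone of snoRNPs, had 0.42, 0.53 and 0.70 on the IL-18 arrays and -0.42, -0.46 and -0.58 on the unstimulated arrays, a change of 1.04 ± 0.09. IL-18 replicate 1 was the lowest IL-18 array for all 3 genes, and no groups overlapped. Npm1 shares 3 further probe sets with Gm15484, and these changed by 1.34, 1.22 and 1.22. Copies of Npm1 elsewhere in the genome make its value less certain than those of single-copy genes.

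All 9 measured Exosc genes, which encode subunits of the RNA exosome, rose, 3 of them at least 2-fold, and their median of 0.81 was below the 1.14 of the small subunit factors, a difference that was not tested. Of the cap, which threads RNA into the ring, Exosc2 stood at 0.62, 0.52 and 0.74 on the IL-18 arrays, against -0.59, -0.52 and -0.62 on the unstimulated arrays, a log2 change of 1.20 ± 0.08 (limma adjusted p 1.54e-06). Exosc1, also of the cap, had 0.43, 0.55 and 0.53 on the IL-18 arrays and -0.63, -0.43 and -0.48 on the unstimulated arrays, a change of 1.02 ± 0.08. The third cap gene, Exosc3, had the smallest change of the 9. It had 0.08, 0.19 and 0.15 on the IL-18 arrays and -0.03, -0.16 and -0.05 on the unstimulated arrays, a change of 0.22 ± 0.08 (limma adjusted p 0.0435). Its 2 probe sets disagreed, at -0.13 ± 0.11 (adjusted p 0.386 over all probe sets) and 0.58 ± 0.09 (0.00127). The call ended under 8 of 13 alternatives, over which adjusted p ran from 0.0214 to 0.151, including the leaving out of any 1 array.

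Among genes of the ring, Exosc8 had 0.45, 0.38 and 0.63 on the IL-18 arrays and -0.74, -0.38 and -0.68 on the unstimulated arrays, a log2 change of 1.08 ± 0.11. Exosc9, Exosc7, Exosc5 and Exosc4 changed by 0.91 ± 0.12, 0.81 ± 0.09, 0.75 ± 0.09 and 0.66 ± 0.11. Exosc10, the nuclear exonuclease attached to the ring, changed by 0.51 ± 0.08 (limma adjusted p 0.000471). Exosc6, the other ring gene, shares its 1 probe set with Aars, and the change of 1.76 read there cannot be assigned to either gene. Utp14b shares a probe set with Acsl3, which changed by -0.10.

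Another 5 genes matched the rule by name and were placed in none of the role groups above. Nol3 encodes an inhibitor of apoptosis and is no assembly factor, and no role in assembly was assigned here to Nol4 and Nol4l. Nol4l stood at 0.70, 0.70 and 0.61 on the IL-18 arrays, against -0.65, -0.74 and -0.61 on the unstimulated arrays, a log2 change of 1.34 ± 0.08 (limma adjusted p 4.49e-07). Nol7, a nucleolar protein, had 0.26, 0.34 and 0.42 on the IL-18 arrays and -0.48, -0.26 and -0.62 on the unstimulated arrays, a change of 0.79 ± 0.10. Nol8, another nucleolar protein, had 0.09, 0.08 and 0.25 on the IL-18 arrays and -0.38, -0.08 and -0.32 on the unstimulated arrays, a change of 0.40 ± 0.10. The other two did not pass. Nol4 had 0.07, 0.03 and -0.18 on the IL-18 arrays and 0.13, -0.10 and -0.05 on the unstimulated arrays, a change of -0.02 ± 0.09 (limma adjusted p 0.88, 95% interval -0.23 to 0.19). Nol3 had -0.02, -0.16 and -0.15 on the IL-18 arrays and 0.11, 0.02 and 0.03 on the unstimulated arrays, a change of -0.17 ± 0.08 (limma adjusted p 0.113). Its groups did not overlap, with the IL-18 arrays on the lower side. Of all genes, 48.6% had groups apart in either direction, and 22.9% had them apart with the IL-18 arrays on the higher side. Without Nol3, Nol4 and Nol4l, 57 of 58 genes rose.

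Genes outside the name rule were counted from lists set up by assembly role, also with earlier results known. The role of each listed gene was not checked. Of 34 further genes listed for the small subunit, 32 rose and 0 fell, 2 missed the threshold, and the median was 0.97. Pno1, a late factor that guards the end of the small subunit rRNA, changed by 2.44 ± 0.10, more than any member, and the processome protein Wdr75 by 1.74 ± 0.08. The lowest were Bud23, an rRNA methyltransferase, at 0.26 ± 0.08, which passed, and Sart3 at 0.06 ± 0.08, which did not. The place of Sart3 among small subunit genes is doubtful. Of 41 further genes listed for the large subunit, 37 rose and 0 fell, 4 missed the threshold, and the median was 0.96. Mdn1, the giant remodelling ATPase, changed by 1.90 ± 0.11 and Pwp1 by 1.70 ± 0.10. Sbds, which frees the large subunit for translation, had a change of 0.17 ± 0.08, and Fam207a -0.07 ± 0.08, and both missed the threshold. The place of Fam207a among large subunit genes is doubtful.

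Of 12 genes listed for snoRNP assembly, among them the core protein Snu13, 9 rose and 0 fell, 3 missed the threshold, and the median was 0.64. Znhit6 changed by 1.32 ± 0.09 and Naf1, a box H/ACA assembly factor, by 1.13 ± 0.10. Snu13, the fourth core protein of the box C/D particle, had a change of -0.07 ± 0.07 (limma adjusted p 0.49), while its partners Nop58, Nop56 and Fbl rose, a difference that was not tested. Likewise, Pih1d1 had -0.06 ± 0.07. Among 16 cofactors of the exosome and other ribonucleases, 8 rose and 1 fell, 7 missed the threshold, and the median was 0.33. Dis3, a catalytic subunit of the nuclear exosome, changed by 1.47 ± 0.12 and Ttc37, of the cytoplasmic helper complex, by 1.08 ± 0.11. Dis3l, the cytoplasmic counterpart of Dis3 and named after its values were seen, had a change of 0.10 ± 0.10 (limma adjusted p 0.43) and did not pass. Xrn1, the main cytoplasmic exonuclease of decapped mRNA, fell with -0.52 ± 0.12. Xrn2 had -0.18 ± 0.11 and did not pass (limma adjusted p 0.226). Of 13 snoRNA host genes, which carry snoRNAs in their introns, 4 were measured and all 4 rose, from 1.81 ± 0.12 for Gas5 and 1.71 ± 0.12 for Snhg5 to 0.49 ± 0.12 for Snhg17 and 0.40 ± 0.08 for Snhg15.

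**Figure D4:**
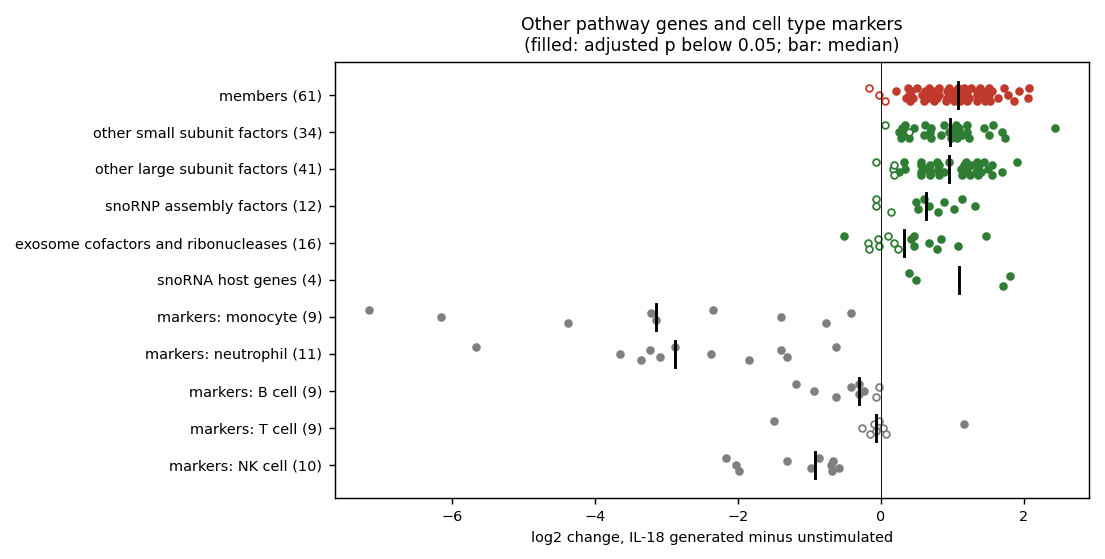
Log2 change, IL-18 generated minus unstimulated (horizontal axis), for each gene of the members, of 5 lists of related pathway genes and of 5 lists of cell type markers (rows, with the number measured), with filled points at an adjusted p below 0.05 and a bar at the median. Medians are 1.08 for the members, 0.97 and 0.96 for the other subunit factors, and -3.14 and -2.88 for monocyte and neutrophil markers.

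Facts of the whole series bear on how these changes are read. Kit rose by 2.79 ± 0.13 and Itgam, which encodes CD11b, fell with -5.32 ± 0.11, both in the direction of the gates. Klrb1c, which encodes NK1.1 and is counted among the NK cell markers below, fell with -2.03 ± 0.11. Both gates took NK1.1 positive cells, and the cause of that difference was not tested. All 9 measured monocyte markers and all 11 neutrophil markers fell, with medians of -3.14 and -2.88. Per array, monocyte markers averaged between -1.62 and -1.58 in the IL-18 group and between 1.47 and 1.91 in the unstimulated group. Neutrophil markers averaged between -1.25 and -1.00 in the IL-18 group, against 1.14, 2.39 and 1.17 in the unstimulated group, with replicate 2 the highest. Of 9 B cell markers 7 fell and 2 did not pass, of 9 T cell markers 1 rose and 1 fell, and all 10 NK cell markers fell, with a median of -0.93. No marker's level can be read from relative values, and the part of other cells in the members' changes was not tested. In bulk samples, fewer cells of a type and less RNA per cell cannot be told apart, and relative array values do not show total RNA per cell.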

How the data were processed

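Total RNA of 6 NK cell preparations was purified on columns, labelled with biotin by an Affymetrix WT Terminal Labeling Kit and hybridised, per the labels' protocols. The deposited table holds the authors' processed log2 values for 28815 probe sets, and every probe set has its median over these arrays at 0. The log base and the methods of summarization and normalization are not given in these sources. Base 2 was read from the values: 44 of the 239 probe sets with a range above 3.09 lay on the rounding grid of numbers above 8 (tolerance 0.15 of a step), where natural logarithms of 16-bit intensities could not range so far. No further normalization was applied, since array medians over genes lay between -0.025 and 0.039.

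Probe sets were named from the platform annotation: 21780 had 1 symbol, 1605 several and 5430 were not listed. A gene was the mean of its probe sets with 1 symbol, and 5 members had more than 1. The 2 groups were compared over 19935 genes by limma's moderated linear model without covariates (limma 3.58.1, R 4.3.3), with Benjamini-Hochberg adjustment and a threshold of 0.05. Tables were made in Python 3.11.15 with pandas 2.3.3, and figures with matplotlib 3.10.9. In simulated data, the procedure called 61.2%, 97.0% and 98.5% of log2 changes of 0.5, 1.0 and 2.0. Of 179 genes called there, 8 were unchanged. The simulation changed far fewer genes than were called in the real data, so its shares need not hold there.

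Members and lists were chosen with earlier results of these data known. Values by array are given for the 3 largest and the lowest change in each role and for all members that did not pass. From each pathway list the 2 largest and 2 lowest changes are named. Protein sequences were not used here. The number of arrays limits the precision, and p-values measure only the spread between these 6 preparations. The alternatives tried were other variance options in limma, quantile normalization, centring and weighting of arrays, other summaries of probe sets, a block for the replicate number, and the omission of 1 array at a time.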

Additional observations from a re-analysis of the deposited data

How the results depend on the processing

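The count of members that rose was 57 or 58 under limma's variance options, quantile normalization, array centring, array weights and the median of probe sets, and 0 members fell. With genes of 1 probe set only, 54 of 56 members rose, and with all probe sets as features, 61 of 67 member probe sets did. Requiring a change of at least 2-fold left 35 members, all of them higher. Of all genes it left 1368, with 721 higher and 647 lower, against 7266 in either direction at the adjusted p alone. Leaving out each array in turn gave 57 members in every case, a members' median between 1.02 and 1.11, between 86 and 95 other pathway genes, and between 6083 and 8584 of all genes. Of 849 values of single members under alternatives, 837 kept direction and call. The exceptions were 8 for Exosc3, whose adjusted p reached 0.0506 with limma's trend and 0.151 without IL-18 replicate 2, and 4 for Nol4. The change of Nol4 turned to 0.02 with quantile normalization and 0.01 with arrays centred. Without each array in turn it ran from -0.07 to 0.06, above 0 without IL-18 replicate 3 or unstimulated replicate 1, and the cause was not tested. With the replicate number as a block, 57 members, 92 other pathway genes and 7279 genes were called. Deviations of same-numbered arrays correlated at 0.238, 0.008 and -0.02, and IL-18 replicates 2 and 3 correlated best with another number. With 3 arrays in each group, whose deviations depend on each other, these correlations cannot settle whether the numbers are pairs. The main fit took no pairs, and the block is given beside it. Signal over background is unknown, since centred values keep no level.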

Other observations

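Besides their proteins, the array reads some snoRNAs, the guide RNAs of the snoRNPs. This family was examined after the members' values were known. Of 55 small RNA genes with a probe set of their own, 22 rose, 12 fell and 21 did not pass limma's test at an adjusted p below 0.05, where 19.7% of all genes rose and 16.7% fell. Box C/D RNAs had a median log2 change of 0.39, with 16 of 32 higher and 4 lower. Box H/ACA RNAs had a median of 0.13, with 6 of 20 higher and 6 lower. Of 3 RNAs of Cajal bodies, 2 fell and 1 did not pass. The members that encode core proteins of both particles all rose, though Snu13 did not pass, and no such single direction was seen among these RNAs.

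Snord16a had 0.81, 1.14 and 1.78 on the IL-18 arrays and -1.10, -1.05 and -0.81 on the unstimulated arrays, a change of 2.22 ± 0.20 (SE, n = 3 arrays per group). Snord118, which is known to be needed for large subunit rRNA processing, had -0.54, -0.53 and -0.48 on the IL-18 arrays and 2.98, 0.48 and 2.42 on the unstimulated arrays. Its change of -2.48 ± 0.48 (limma adjusted p 0.00213) rested on widely spread unstimulated arrays, with replicate 2 far below the other two. Without that array the change was -3.22 (adjusted p 7.4e-07), and without any other array it lay between -2.50 and -1.97. Scarna17 was tighter, at -0.64, -0.77 and -0.81 on the IL-18 arrays and 0.72, 0.81 and 0.64 on the unstimulated arrays. Most snoRNAs lie in introns of host genes, and whether a probe set reads the mature RNA or its precursor was not tested. Leaving out 1 array gave between 18 and 21 RNAs higher and between 9 and 12 lower.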
